A study of Mus musculus with 12 samples.

Results

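The 10 genes described here encode the main structural components of the basement membrane: the laminin chains Lama1, Lama5, Lamb1 and Lamc1, the collagen IV chains Col4a1 and Col4a2, the nidogens Nid1 and Nid2, the proteoglycan perlecan (Hspg2) and the collagen-binding glycoprotein Sparc. They were selected on their names with the fold changes of both comparisons already known, from 45706 genes listed for blastocysts and 13009 listed for embryonic stem (ES) cells, and all 10 were found by symbol in both. The fold changes and p-values of the 10 genes are therefore given as a description, and no test was run on them. The series measured RNA in mouse blastocysts and ES cells that were either wild type (Dis3L WT) or knockout (Dis3L KO) for Dis3l, the gene of an RNA-degrading subunit of the exosome in the cytoplasm. The labels list 12 samples in 4 groups of 3, with no drug treatment and no further allele. Each blastocyst library came from a single embryo of a superovulated female, and the ES cell lines were derived and kept on inactivated mouse embryonic fibroblasts, a layer of cells that make basement membrane proteins themselves. The labels do not say whether the 3 ES cell samples of a genotype are separate lines, so their spread may be technical.

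A basement membrane is a thin sheet of extracellular matrix on which epithelial cells rest. Laminins are trimers of an alpha, a beta and a gamma chain that assemble into a network on the cell surface, and collagen IV forms another, covalently linked network. Nidogens and perlecan bridge them, and Sparc binds collagen IV. In the blastocyst the first such sheets lie beneath the trophectoderm and between the epiblast and the primitive endoderm, whose parietal derivative later secretes laminin and collagen IV in bulk.

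The upstream sequences of 4 members are shown because their genes share a column pattern in blastocysts (Lamb1, Nid1 and Hspg2) or depart from it (Lama5). Each runs 5′ to 3′ on the gene's strand and ends at the first annotated exon, and capitals mark the GC box GGGCGG or its reverse complement CCGCCC. The sequences are from RefSeq on GRCm38.p6.
Lama5 (chr2:180225860-180226109, minus strand): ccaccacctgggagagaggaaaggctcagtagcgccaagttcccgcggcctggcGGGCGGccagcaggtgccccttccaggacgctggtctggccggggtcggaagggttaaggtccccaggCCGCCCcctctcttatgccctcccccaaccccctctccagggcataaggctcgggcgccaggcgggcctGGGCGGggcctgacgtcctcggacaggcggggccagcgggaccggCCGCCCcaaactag
Hspg2 (chr4:137468553-137468768, plus strand): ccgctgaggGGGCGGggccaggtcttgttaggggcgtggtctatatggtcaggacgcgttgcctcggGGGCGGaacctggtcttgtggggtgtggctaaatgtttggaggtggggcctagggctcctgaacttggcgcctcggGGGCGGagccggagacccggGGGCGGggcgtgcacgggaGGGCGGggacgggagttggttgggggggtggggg
Lamb1 (chr12:31265043-31265233, plus strand): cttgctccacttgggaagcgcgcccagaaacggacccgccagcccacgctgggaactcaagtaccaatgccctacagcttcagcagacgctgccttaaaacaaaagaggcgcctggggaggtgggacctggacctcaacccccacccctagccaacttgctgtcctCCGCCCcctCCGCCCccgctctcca
Nid1 (chr13:13437352-13437550, plus strand): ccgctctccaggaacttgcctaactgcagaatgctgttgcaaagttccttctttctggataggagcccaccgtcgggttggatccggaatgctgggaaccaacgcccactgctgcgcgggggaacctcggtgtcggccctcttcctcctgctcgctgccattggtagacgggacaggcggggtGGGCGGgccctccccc

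Promoter windows, from 250 bases before to 50 after the start, were matched for 7 of the 10 members, namely those of these 4 genes and of Col4a1, Col4a2 and Sparc. Of these windows, 6 held a GC box on either strand, with 5 matches in Hspg2, 4 in Lama5, 3 in Col4a2, 2 in Lamb1 and 1 each in Col4a1 and Nid1. A GC box was found in 35.7% of all 32851 windows of 300 bases. The pentamer CCAAT, on either strand, had 1 match each in Col4a1, Col4a2, Lamb1 and Nid1 and none in the other 3, against 37.4% of all windows with a match. The hexamers AGATAA and TGATAA, which hold the core bound by GATA factors, had no match in the 7 windows and were in 18.6% of all windows. The SOX-type hexamer AACAAT had no match in them either and was in 10.7% of all windows. AGATAA and TGATAA share the run GATAA, and no other motif searched lies within another. The windows of Col4a1 and Col4a2 overlap on chromosome 8 from 11312777 to 11312854, so a match lying wholly there counted for both genes. A match or its absence describes the 7 windows only.

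Col4a1 and Col4a2 encode the chains of the most widespread collagen IV trimer and are neighbours that run apart from each other. Per the coordinates of the blastocyst table (GRCm38), Col4a1 lies on chromosome 8 from 11198423 to 11312826 on the minus strand and Col4a2 from 11312805 to 11449287 on the plus strand. Their bodies share 22 bases at the paired starts, so unstranded counting could not assign a read lying wholly there.

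Neither deposited table holds values per sample, so whole reads were recovered from the authors' mean normalised counts. The blastocyst means were sums over 6 count columns and the ES cell means over 4, although the labels list 6 samples for each material. A column on the positive side raises the deposited log2 fold change and one on the negative side lowers it. Within a side, columns are numbered from the highest to the lowest size factor. Which genotype was divided by which is stated nowhere, so no side is assigned to a genotype. Size factors, the relative depths, ran from 0.695 to 1.62 in blastocysts and from 0.759 to 1.25 in ES cells, and total depth is unknown. Recovered reads of Dis3l were 26, 8 and 0 against 10, 4 and 8 in blastocysts, and 14 and 8 against 39 and 39 in ES cells, positive side first. Over all genes, the authors' deposited tables hold 15 of 15209 tested blastocyst genes and 28 of 10739 tested ES cell genes with an adjusted p-value under 0.05. Marker lists were counted against the labelled materials: blastocysts had reads for 11 of 11 trophectoderm, 10 of 10 pluripotency, 15 of 15 primitive endoderm and 8 of 18 feeder fibroblast genes, while the ES cell table had 10 of 10 pluripotency, 18 of 18 feeder fibroblast, 10 of 15 primitive endoderm and 7 of 11 trophectoderm genes. Any mean above 0 counted, and some of these genes were near the floor. In ES cells only 4 primitive endoderm and 4 trophectoderm genes of these lists were tested.

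In blastocysts 0 of the 10 basement membrane genes passed the adjusted threshold of 0.05 in the authors' deposited table, where Lama1 and Hspg2 carry no p-value, against a background of 0.0986% of all genes tested. With the unadjusted p-value at the same threshold the number was also 0, against 6.21% of all genes tested. The deposited log2 fold change was positive for 9 of the 10 genes and negative for Lama5. Of the 8 members with an adjusted p-value 7 were positive, against 48.3% of all genes tested. The median over the 8 genes with an adjusted p-value was 0.40, and over all genes tested it was −0.04. In these bulk libraries, fewer cells of a type and less RNA per cell cannot be told apart.

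Among the laminin chains, Lama1 (chromosome 17, 67697265 to 67822645) encodes the alpha chain of the laminin of early embryos. Its normalised reads in blastocysts were 4986, 5139 and 3428 in positive-side columns 1 to 3 and 767, 7480 and 762 in negative-side columns 1 to 3. Negative-side columns 1 and 3 lay far below the other 4 columns, and negative-side column 2 was the highest of the 6, so the sides overlapped. The authors' deposited table gave Lama1 a log2 fold change of 0.59 (standard error 1.05) and no p-value. Lamb1 (chromosome 12, 31265234 to 31329644), the beta chain shared by most laminins of the embryo, had 4619, 3514 and 4205 normalised reads (positive side) and 1670, 5055 and 1413 (negative side). Lamc1 (chromosome 1, 153218922 to 153332786), the gamma chain of nearly all laminins, had 3748, 3057 and 2075 normalised reads (positive side) and 832, 4101 and 1488 (negative side). Both genes repeated the order seen in Lama1, with the same columns lowest and the same column highest. Their deposited log2 fold changes were 0.60 (standard error 0.40, adjusted p = 0.811) for Lamb1 and 0.47 (standard error 0.44, adjusted p = 0.815) for Lamc1 in the authors' deposited table, from the DESeq2 Wald test with Benjamini-Hochberg adjustment.

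Lama5 (chromosome 2, 180176373 to 180225859), the alpha chain that is widespread in epithelial basement membranes, departed from this order. It had 1787, 878 and 329 normalised reads (positive side) and 965, 1351 and 975 (negative side). Positive-side column 1 was highest and positive-side column 3 lowest, with the negative side between them. The authors' deposited table gave a log2 fold change of −0.14 (standard error 0.46) and an adjusted p of 0.997. Within a column, the normalised reads per kilobase of Lama1 over those of Lama5 ranged from 0.92 to 12.3, with a median of 4.90.

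The collagen IV chains followed the laminin trimer rather than Lama5 in the order of their columns. Col4a1 had 1459, 1494 and 1259 normalised reads (positive side) and 688, 2413 and 731 (negative side). Col4a2 had 892, 944 and 558 normalised reads (positive side) and 234, 1576 and 380 (negative side). In both genes negative-side column 2 was highest and negative-side columns 1 and 3 were lowest. The deposited log2 fold changes were close to 0, at 0.14 (standard error 0.42) for Col4a1 and 0.13 (standard error 0.53) for Col4a2, each with an adjusted p of 0.997 in the authors' deposited table. Per kilobase, Col4a1 exceeded Col4a2 in all 6 columns, by 1.36 to 2.61 times.

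The nidogens, which link laminin to collagen IV, had the largest deposited log2 fold changes of the 10 genes. Nid1 (chromosome 13, 13437602 to 13512275) had 1315, 3084 and 3417 normalised reads (positive side) and 759, 3066 and 515 (negative side). Nid2 (chromosome 14, 19751257 to 19811787) had 530, 181 and 128 (positive side) and 73.0, 337 and 80.6 (negative side). Negative-side columns 1 and 3 were again the lowest of the 6, while the highest was positive-side column 3 for Nid1 and positive-side column 1 for Nid2. The authors' deposited table gave Nid1 0.85 (standard error 0.85, adjusted p = 0.835) and Nid2 0.78 (standard error 0.66, adjusted p = 0.811). For Nid2 the value rested on 1 column, since the log2 ratio of recovered reads was 0.77 with all columns and −0.08 without positive-side column 1.

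Perlecan, the heparan sulfate proteoglycan encoded by Hspg2 (chromosome 4, 137468769 to 137570630), varied most between columns. It had 356, 529 and 512 normalised reads (positive side) and 39.6, 952 and 46.0 (negative side). The highest column was 24.1 times the lowest, and the low columns rested on 64 and 32 reads. Its log2 fold change in the authors' deposited table was 0.43 with a standard error of 1.32 and no p-value. Hspg2 and Lama1 were among 12 of 5449 blastocyst genes with a mean of 100 or more that have no p-value, or 0.220%. Sparc (chromosome 11, 55394500 to 55420080) had 1218, 1618 and 1481 normalised reads (positive side) and 547, 2089 and 791 (negative side), the same order of extremes as the laminin trimer. Its deposited log2 fold change was 0.33 (standard error 0.42, adjusted p = 0.906) in the authors' deposited table.

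**Figure D1:**
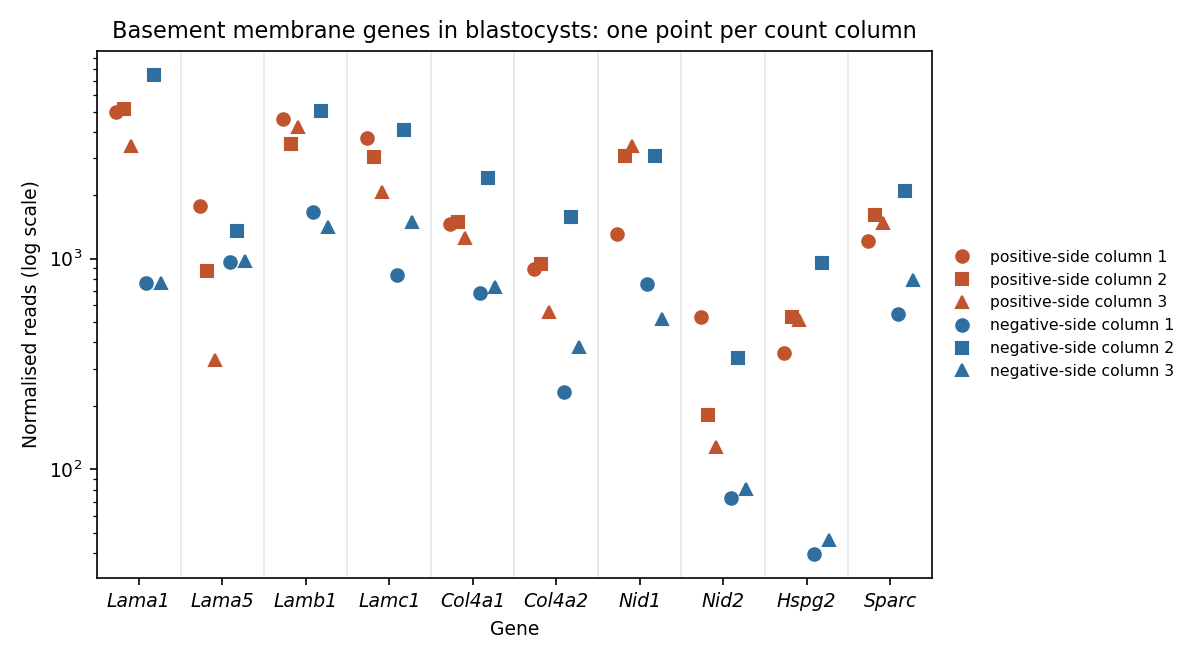
Normalised reads (log axis) of the 10 basement membrane genes in the 6 blastocyst count columns, coloured by side of the deposited comparison and with 1 marker shape per column number. For every gene except Lama5, negative-side columns 1 (circle) and 3 (triangle) lie lowest, and for 7 genes negative-side column 2 (square) lies highest.

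Counted over the genes, negative-side columns 1 and 3 were the 2 lowest of 6 for 9 of the 10 members, all but Lama5. The same order held for 17.2% of 5403 blastocyst genes with a mean from 100 to 4000. Negative-side column 2 was the highest of 6 for 7 members, namely Lama1, Lamb1, Lamc1, Col4a1, Col4a2, Hspg2 and Sparc, against 14.8% of those genes. These columns were singled out after their values were seen, so the counts are a description of 3 columns and not a test. The 2 sides did not overlap for 0 of the 10 members, against 13.1% of the same genes. Relative to each gene's own mean over the columns, the median of the 10 members was −1.51 on the log2 scale in negative-side column 1, below the 5th percentile of −1.33 over all those genes. In negative-side column 3 the members' median was −1.14, where the 5th percentile was −1.42. In negative-side column 2 it was 0.69, above the 95th percentile of 0.65.

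**Figure D2:**
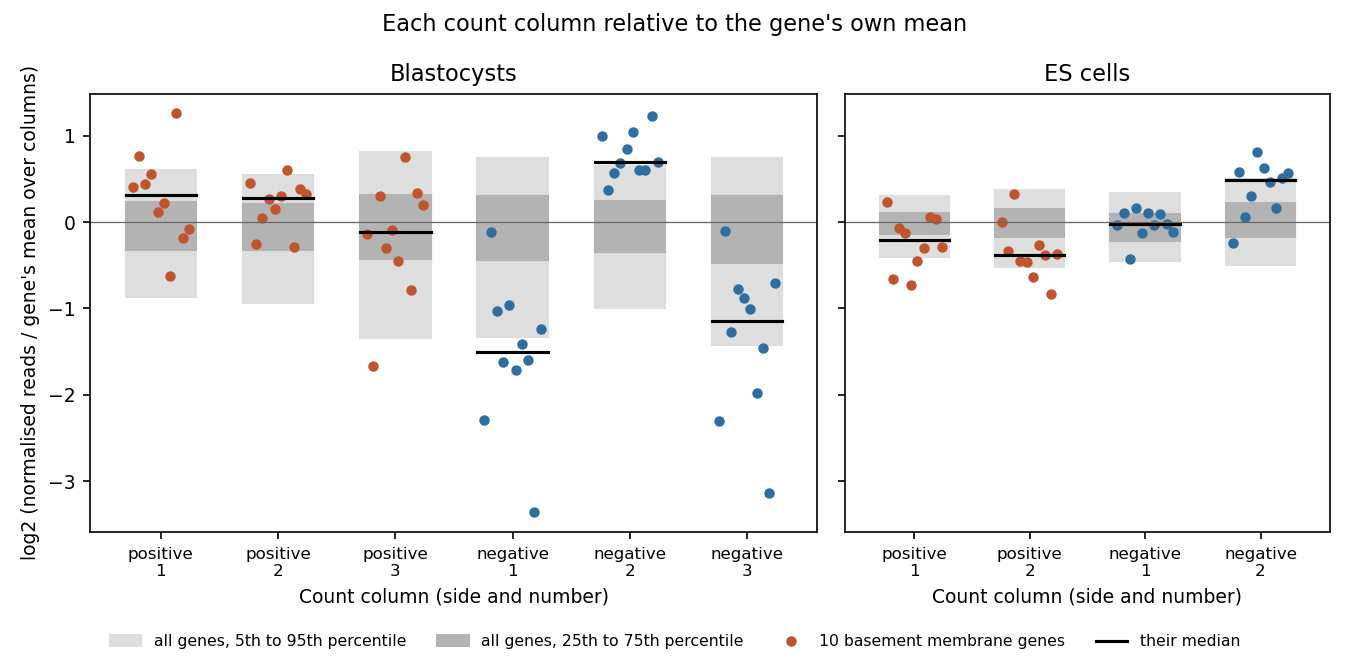
Log2 of normalised reads over the gene's own mean, for each count column of the blastocysts (left) and the ES cells (right). Dots are the 10 basement membrane genes, black bars their median, and grey boxes the 5th to 95th and 25th to 75th percentiles of all recovered genes. In blastocysts the members sit low in negative-side columns 1 and 3 and high in negative-side column 2, and in ES cells the median is furthest from 0 in negative-side column 2, at 0.49.

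The columns spread more widely in these genes than in most. The ratio of the highest to the lowest column had a median of 6.03 over the 10 members and of 2.45 over the 5403 genes. All 10 members had a deposited standard error above the median of genes with a mean within 2 times their own, and between 91.0% and 99.4% of those genes had a lower one. For Lama1 the deposited standard error was 1.05, where genes of like mean had a median of 0.28. For Hspg2 it was 1.32, against 0.40.

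**Figure D3:**
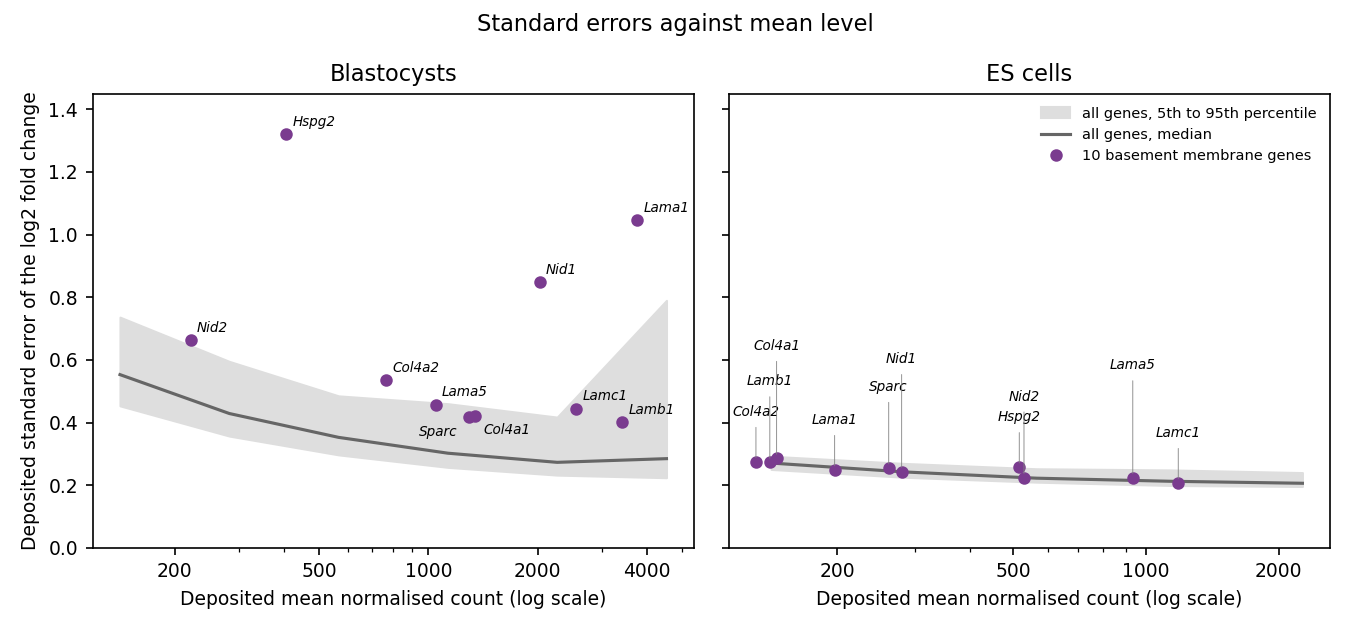
Deposited standard error of the log2 fold change against the deposited mean normalised count (log axis) in blastocysts (left) and ES cells (right). The grey line and band are the median and the 5th to 95th percentiles of all genes in bins of mean. In blastocysts all 10 members lie above the median, with Hspg2, Lama1 and Nid1 at 1.32, 1.05 and 0.85, while in ES cells the members lie between 0.21 and 0.29.

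Leaving out single columns showed how much the average rested on them. Without negative-side column 2 the log2 ratio of recovered reads was positive for 10 of 10 members, from 0.04 in Lama5 to 3.44 in Hspg2, with a median of 1.40. Lama1 went from 0.59 to 2.56 and Nid1 from 0.85 to 2.03. Without negative-side column 1 the ratio was positive for 5 of 10 members with a median of 0.04, and without negative-side column 3 for 6 of 10 with a median of 0.13. Without negative-side column 1 the sign changed for Col4a1, Col4a2, Hspg2 and Sparc, and without negative-side column 3 for Col4a1, Col4a2 and Hspg2. Without positive-side column 3 or without negative-side column 2 the sign of Lama5 changed, and without positive-side column 2 that of Col4a2 did. The sign was kept for Lama1, Lamb1, Lamc1 and Nid1 whichever single column was left out.

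**Figure D4:**
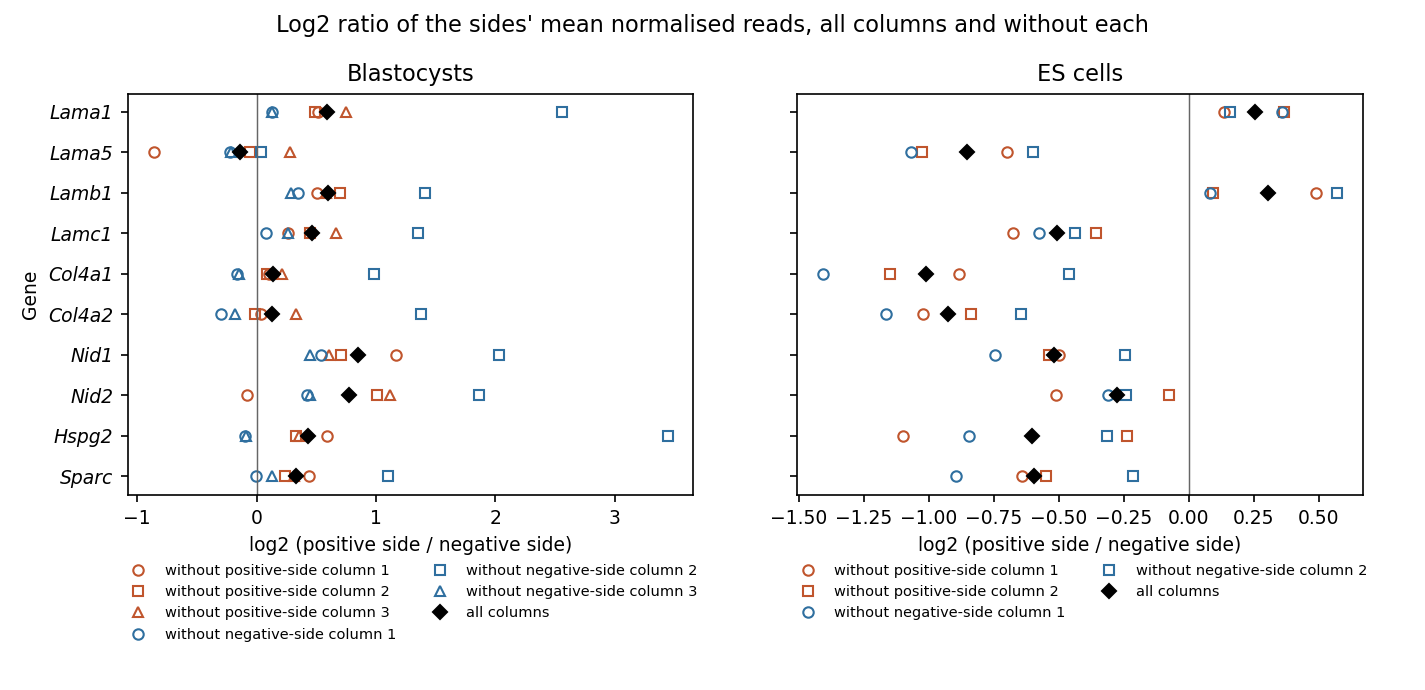
Log2 ratio of the mean normalised reads of the positive over the negative side for each of the 10 basement membrane genes, with all columns (black diamonds) and without each column in turn (open symbols), in blastocysts (left) and ES cells (right). In blastocysts the values without negative-side column 2 lie from 0.04 to 3.44, and in ES cells 8 genes stay below 0 and 2 above 0 in every setting.

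Markers of the cell types of the blastocyst were set beside this column order. Of the 13 of 15 primitive endoderm genes with recovered reads, 5 had negative-side columns 1 and 3 lowest as the members did, among them Dab2, Cubn and Pth1r, and 8 did not. Their summed normalised reads were 12934, 7571 and 5780 (positive side) and 11645, 11365 and 10272 (negative side). That sum rested on Lrp2, the endocytic receptor megalin, with 5365, 763 and 251 against 6718, 2001 and 5055. Without Lrp2, left out after its values were seen, the other 12 genes summed to 7568, 6808 and 5528 against 4928, 9364 and 5216. That sum had the members' own order of columns, and in every column most of it came from Dab2 and Cubn. Dab2, an adaptor protein of endocytosis and the most abundant gene of the list, had 3913, 3713 and 3467 against 2562, 4205 and 2578. Cubn, the endocytic receptor cubilin, had 1487, 1031 and 370 against 162, 2700 and 127. The transcription factors of the lineage did not follow the members in the same way. Gata6 had 620, 759 and 270 against 1238, 631 and 949, with its highest values where the members were lowest, and Gata4 had 411, 369 and 352 against 233, 667 and 518. Sox17 had 168, 97.4 and 82.3 against 64.3, 89.2 and 239, with its lowest value in negative-side column 1 and its highest in negative-side column 3. Of 9 of the 11 trophectoderm genes with recovered reads, Gata3 and Elf5, 2 genes, had the members' order, and the 9 summed to 7757, 8368 and 9177 against 6483, 7405 and 6042. That sum leaves out Krt8 and Krt18, the keratins with the highest means of the list (5505 and 7678), whose reads were not recovered. Their log2 fold changes in the authors' deposited table were negative, −0.87 for Krt8 and −0.63 for Krt18. The summed pluripotency genes, 10 of 10, were 4005, 2820 and 2515 (positive side) and 4089, 3860 and 3988 (negative side). The part of any of these cell types in the members' column order was not tested.

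Levels per kilobase of exonic length placed the chains of 1 laminin trimer near the top in blastocysts. The authors' mean per kilobase was 388 for Lama1, 344 for Lamb1, 341 for Sparc, 308 for Lamc1 and 292 for Nid1. Col4a1 followed at 180, Col4a2 at 115 and Lama5 at 92.0, and Nid2 and Hspg2 were lowest at 42.8 and 28.4. Every pair of neighbours in this order overlapped in its columns, and Lama1 alone ranged from 78.8 to 773 per kilobase. With the longest transcript as the length, Lamb1, Sparc and Lama1 changed places and the other 7 kept theirs. Within a column, Lamb1 over Lamc1 was 0.79 to 1.69 per kilobase and Nid1 over Nid2 was 1.85 to 19.9.

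In ES cells 8 of the 10 genes were lower on the positive than on the negative side, as were 50.0% of all genes tested. Lama1 and Lamb1 went the other way. None of the 10 passed the adjusted threshold of 0.05 in the authors' deposited table, against 0.261% of all genes tested. With the unadjusted p-value at that threshold 4 members passed, namely Lama5, Lamc1, Col4a1 and Col4a2, against 5.62% of all genes tested. All 4 were negative, as were 3.42% of all genes tested at that threshold. The median deposited log2 fold change of the 10 members was −0.47, and that of all genes tested was −0.000109. These fold changes carry a prior that pulls them towards 0, so the ratio of the recovered reads is larger, and sizes are not comparable with the blastocyst table.

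The laminin alpha chains differed in sign in ES cells. Lama5 had 591 and 740 normalised reads in positive-side columns 1 and 2 and 1007 and 1397 in negative-side columns 1 and 2. The sides lay apart, and the authors' deposited table gave a log2 fold change of −0.74 (standard error 0.22), a p-value of 0.000891 and an adjusted p of 0.134. The log2 ratio of the recovered reads was −0.85. Lama1 had 232 and 198 normalised reads (positive side) and 192 and 167 (negative side), with a deposited log2 fold change of 0.22 (standard error 0.25). The sides of Lama1 also lay apart, though by only 198 against 192 at the nearest. Lamb1 had 134 and 176 against 105 and 147, and its sides overlapped. Lamc1 had 1085 and 869 normalised reads on the positive side against 1324 and 1456, with a log2 fold change of −0.45 (standard error 0.21, adjusted p = 0.763) in the authors' deposited table.

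Both collagen IV chains were lower on the positive side in ES cells. Col4a1 had 87.8 and 105 normalised reads (positive side) and 133 and 256 (negative side), with a log2 fold change of −0.77 (standard error 0.29, adjusted p = 0.437) in the authors' deposited table. Col4a2 had 95.8 and 84.3 against 141 and 202, with −0.72 (standard error 0.27, adjusted p = 0.460). The log2 ratios of the recovered reads were −1.01 and −0.93. The sides of both genes lay apart, and negative-side column 2 was the highest. Per kilobase, Col4a1 over Col4a2 ran from 0.81 to 1.12 over the 4 columns.

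The bridging components were lower on the positive side by smaller amounts. Nid1 had 227 and 233 normalised reads against 273 and 386, and Nid2 had 550 and 407 against 566 and 594. Sparc had 215 and 201 against 242 and 387. For these 3 genes the sides lay apart, by little for Nid2, whose nearest columns were 550 and 566. Hspg2 had 529 and 291 against 510 and 736, and its sides overlapped. The deposited log2 fold changes were −0.44 for Nid1, −0.24 for Nid2, −0.49 for Sparc and −0.49 for Hspg2 in the authors' deposited table, with unadjusted p-values from 0.0553 for Sparc to 0.288 for Nid2.

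**Figure D5:**
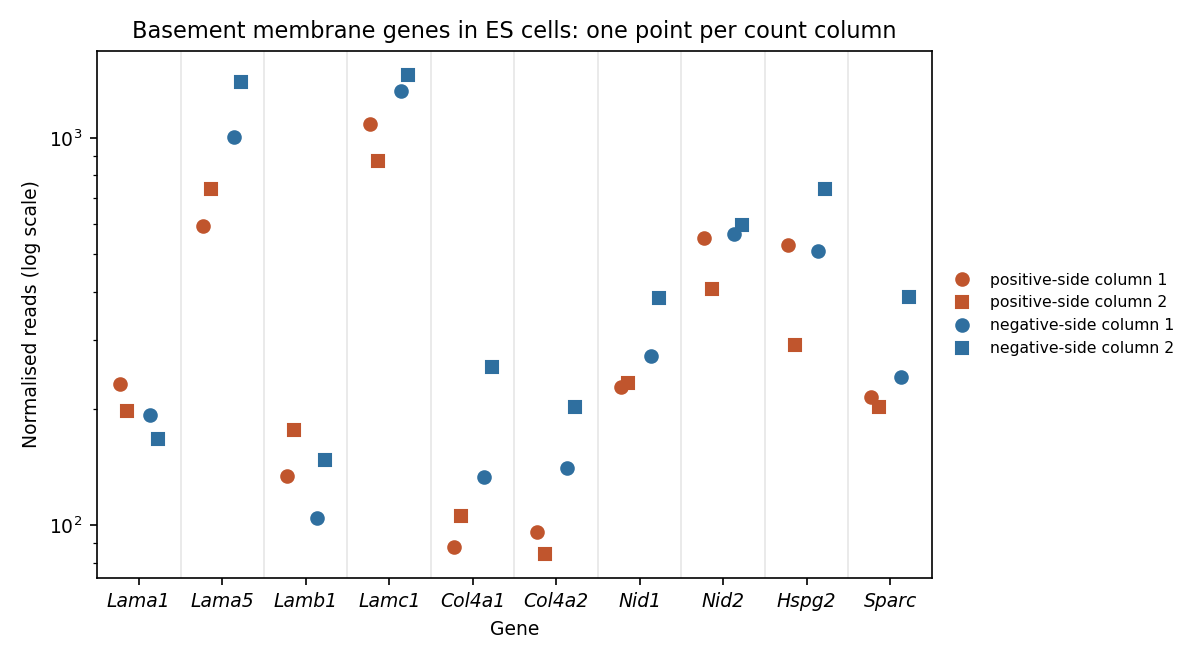
Normalised reads (log axis) of the 10 basement membrane genes in the 4 ES cell count columns, coloured by side of the deposited comparison and with 1 marker shape per column number. For 7 genes both negative-side columns lie above both positive-side columns, for Lama1 the reverse holds, and Lamb1 and Hspg2 overlap.

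Counted over the ES cell columns, the sides did not overlap for 8 of the 10 members, against 39.9% of 3702 genes with a mean from 100 to 1200. Both negative-side columns lay above both positive-side columns for 7 members, against 18.6% of those genes. Negative-side column 2 was the highest of 4 for 8 members, all but Lama1 and Lamb1, against 35.1%. The sum of the feeder fibroblast list was also highest there: its 18 genes summed to 2781 and 2193 normalised reads (positive side) and to 2493 and 4276 (negative side). So was the pluripotency sum, with 6856 and 5306 against 7441 and 7721, but not the primitive endoderm or trophectoderm sum. Of the feeder fibroblast genes 12 were highest in negative-side column 2 and 3 were lowest there, namely Vim, Thy1 and Twist1. The widest gaps were those of Col3a1 and Postn. Col3a1, a fibrillar collagen of fibroblasts, had 44.7 and 73.7 against 53.2 and 865, and Postn, a matrix protein of fibroblasts, had 2.40 and 0 against 0.951 and 127. Vim, the intermediate filament vimentin, had 659 and 496 against 561 and 452. Without negative-side column 2 the log2 ratio was still negative for the same 8 members, from −0.64 in Col4a2 to −0.21 in Sparc, with a median over the 10 of −0.28. The part of the feeder cells in the values of that column was not tested. Standard errors in ES cells were above the median of genes of like mean for 4 of the 10 members. Between 25.8% and 92.8% of those genes had a lower one, and the highest share was that of Hspg2.

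The order of levels per kilobase differed between the materials, which were normalised separately and made into libraries by different methods. In ES cells Lamc1 was highest at 143 and Nid2 next at 102, followed by Lama5 at 82.0, Sparc at 69.0, Nid1 at 40.3 and Hspg2 at 36.1. Lama1 at 20.4, Col4a2 at 19.7, Col4a1 at 19.5 and Lamb1 at 14.2 were lowest. Here too the columns of every pair of neighbours overlapped. With the longest transcript as the length, 7 of the 10 members changed places in ES cells, and Lamc1 stayed first. Within a column, Lama1 over Lama5 was 0.14 to 0.46 per kilobase, where blastocysts had 0.92 to 12.3. Lamb1 over Lamc1 was 0.066 to 0.17, where blastocysts had 0.79 to 1.69. Nid1 over Nid2 was 0.31 to 0.48, where blastocysts had 1.85 to 19.9. None of these ranges met, with either length. No test between the materials was run, since the library method cannot be told apart from the material.

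Other genes of the basement membrane were taken from lists made with earlier results of these data known. Of 7 other laminin chains, 4 had reads in blastocysts and were tested, and none passed, with a median log2 fold change of 0.08. In ES cells 5 were tested and 1 passed, Lama3, the alpha chain of the laminin that anchors epithelia, with 17.6 and 30.3 normalised reads (positive side) and 105 and 131 (negative side). The authors' deposited table gave Lama3 a log2 fold change of −1.58 (standard error 0.31) and an adjusted p of 0.000318. Lamb2, a beta chain, had deposited log2 fold changes of 0.68 in blastocysts and −0.18 in ES cells, and did not pass in either.

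Of 7 other basement membrane collagens, 3 were tested in each material and none passed. Col18a1, whose product carries the fragment endostatin, had a mean of 1213 in ES cells with a log2 fold change of −0.32 in the authors' deposited table, and a mean of 38.2 with 0.44 in blastocysts. The next highest means of the list were low, 10.2 for Col4a4 in blastocysts (log2 fold change −2.01, standard error 2.66) and 28.3 for Col7a1 in ES cells (−0.39, standard error 0.33) in the authors' deposited table. Of 15 other linkers and proteoglycans, 13 were tested in blastocysts and 10 in ES cells, and none passed, with medians of 0.53 and −0.14. Tinagl1, a matrix protein related to tubulointerstitial nephritis antigen, had the highest mean of that list in blastocysts with 784, 970 and 2644 normalised reads (positive side) and 474, 1360 and 633 (negative side). Fbln1, a fibulin, had a deposited log2 fold change of 0.33 there, and in ES cells Agrn (agrin) had −0.27 and Fbln2 −0.07. Frem2, which encodes a protein of the skin and kidney basement membrane, had 0.69 in ES cells (unadjusted p 0.0126, authors' deposited table).

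Of 17 receptors and adaptors, 15 were tested in blastocysts and 16 in ES cells, and none passed. Itga3, an integrin alpha chain that binds laminin, had 150, 99.5 and 169 normalised reads on the positive side in blastocysts and 276, 270 and 365 (negative side). The authors' deposited table gave it a log2 fold change of −1.12 (standard error 0.42), a p-value of 0.00827 and an adjusted p of 0.546. Its sides lay apart and its negative-side columns 1 and 3 were not low, unlike those of 9 of the 10 basement membrane genes. Dag1, the laminin receptor dystroglycan, had −0.65 in ES cells (adjusted p = 0.534 in the authors' deposited table) and 0.25 in blastocysts. Sdc4, a syndecan, had −0.11 in blastocysts, and the integrin genes Itga6 and Itgb1 had −0.22 and −0.34 in ES cells.

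Of 20 genes for folding, modifying and exporting collagen and laminin, 18 were tested in blastocysts and 17 in ES cells, and none passed. In blastocysts 15 of the 18 were positive, against 48.3% of all genes tested, with a median log2 fold change of 0.45. Serpinh1, the collagen chaperone, had 1508, 1254 and 1159 normalised reads (positive side) and 439, 1681 and 400 (negative side), the same extremes as the laminin trimer. P4hb, a subunit of collagen prolyl hydroxylase and a disulfide isomerase, had 2230, 2052 and 2180 against 1631, 1998 and 2023 and varied far less. In ES cells the median of the list was −0.23, with −0.38 for Serpinh1 and −0.26 for P4hb. Of 13 turnover enzymes and inhibitors, 9 were tested in blastocysts and 10 in ES cells, and none passed. The secreted protease Htra1 had 785, 938 and 971 in blastocysts against 151, 1287 and 187, and the cathepsin Ctsl had 1843, 1579 and 1518 against 675, 2415 and 961. Both had negative-side columns 1 and 3 lowest and column 2 highest, as 7 of the members had. In ES cells Timp2, an inhibitor of matrix metalloproteases, had a deposited log2 fold change of 0.23 and Ctsl one of 0.07.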

How the data were processed

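RNA was sequenced from Dis3l wild-type and knockout blastocysts and ES cells. The submitters' processing notes name STAR 2.4.0b, featureCounts, Subread 2.0.1, DESeq2 1.34.0 and the build GRCm38, and the role of each is not given in the sources used here. Blastocyst cDNA was tagmented with Tn5 transposase and ES cell libraries were stranded and ribodepleted, per the labels' protocols. For each material the authors deposited 1 table of comparison results, with 0 columns of values per sample. Per the file headers, the signal column is the authors' mean of normalised counts, the log2 columns are the fold change and its standard error, the score column is the Wald statistic and the p-value columns are raw and adjusted. The planned test on counts per sample could not be run, so the authors' statistics were used, and genes with an adjusted p-value under 0.05 were called.

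A gene's mean is deposited to 15 digits and adds up whole reads, where 1 read of a given column always counts for the same amount. These amounts were read from low means, and the whole reads that give a mean were enumerated and, where several did, chosen by the deposited fold change and its error, refitted with a negative binomial model. Reads were recovered for 5403 of 5406 blastocyst genes with a mean from 100 to 4000 and for 3702 of 3704 ES cell genes with a mean from 100 to 1200. On simulated data, 200 of 200 genes were given back for blastocysts and 200 of 200 for ES cells. There the size factors, the sides and the ES cell prior were taken as known, and no genes of low mean were drawn. The simulation therefore did not check how the size factors, sides and prior were found, nor the reads of low genes. Of the recovered blastocyst counts 94.1% were even, and what a count stands for (a read or a mate of a pair) is not given in the sources used here. The ES cell fold changes were given back only with a normal prior, whose precision lay within 0.1% of its median in 60 of 60 genes checked. Columns were placed on a side by the deposited fold changes, which the chosen split gave back for 38 of 40 blastocyst genes and the next best split for 0. Columns were assigned to no sample or genotype, and none of the p-values comes from them.

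Normalised reads are recovered reads divided by the column's size factor. Lengths are from GENCODE M21. All members are named, and of each wider list the genes with an adjusted p-value under 0.05, those with an unadjusted p-value under 0.05 and a mean of at least 50, and the 2 with the highest means. Some genes are not reported here. The genes set beside the members' column order (markers of the blastocyst's cell types and of feeder fibroblasts) were chosen after their values were seen. The members and lists were chosen with earlier results of these data known. Alternatives were other thresholds, other adjustment sets, recovered read ratios, centring on all genes and leaving out each column. Calculations used Python with numpy, scipy and numba.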

Additional observations from a re-analysis of the deposited data

How the results depend on the processing

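No paired analysis was possible because the deposited tables hold no column that carries a replicate number. In both materials 0 members passed an adjusted p-value of 0.05, and the number was also 0 at an adjusted p-value under 0.01, with a filter of a mean of at least 50 and with adjustment over every gene with a p-value. The smallest adjusted p of a member under the last 2 settings, by Benjamini-Hochberg on the deposited DESeq2 p-values, was 0.808 in blastocysts (Lamb1) and 0.09996 in ES cells (Lama5). At an unadjusted p-value under 0.05 the members numbered 0 in blastocysts and 4 in ES cells. At that threshold the wider lists had 3 genes in blastocysts (Col7a1, Itga3 and P3h2), against 6.21% of all genes tested, and 0 passed after adjustment. In ES cells they had 4 (Lama3, Frem2, Dag1 and Htra1), against 5.62% of all genes tested, and Lama3, 1 gene, passed after adjustment. In the order given above, the lists held 4, 3, 13, 15, 18 and 9 tested genes in blastocysts. In ES cells they held 5, 3, 10, 16, 17 and 10. The log2 ratio of recovered reads and centring on the median of all genes moved the fold change of no member in either material by more than the spread between columns. Leaving out 1 column moved it by more than that in 8 of 60 cases in blastocysts, each without negative-side column 2, and in 10 of 40 in ES cells. The sign changed in 11 of all 60 cases in blastocysts, none of them among those 8, and in 0 of 40 in ES cells. The longest transcript as the length moved 3 members out of place in the order of levels in blastocysts and 7 in ES cells.

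Precision is limited by 3 columns a side in blastocysts and 2 in ES cells, and total depth is unknown. Lama1 and Hspg2 have no deposited p-value in blastocysts. Counting error is not the only source of the spread between recovered columns, and its sources were not separated. Without molecular identifiers, copies of 1 molecule are not told apart.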

Other observations

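Further genes were looked at in the recovered columns after their values had been seen, and are given as values only. In blastocysts Elf5, a transcription factor of the trophectoderm, had 425, 583 and 827 normalised reads (positive side) and 189, 790 and 196 (negative side), with negative-side columns 1 and 3 lowest as in the basement membrane genes. Qsox1, a secreted sulfhydryl oxidase that forms disulfide bonds, had 173, 154 and 553 against 76.7, 341 and 23.0, and Plod3, a collagen lysyl hydroxylase, had 171, 99.5 and 178 against 28.4, 239 and 66.2. Nanog, a factor of pluripotent cells, was highest in the columns where those genes were lowest, with 197, 65.0 and 9.14 (positive side) and 518, 185 and 331 (negative side). Pou5f1 had 248, 131 and 99.4 against 367, 227 and 515. Their deposited adjusted p-values in blastocysts were 0.546 for Nanog and 0.609 for Pou5f1 by the authors' DESeq2 Wald test. Tdgf1 was also highest in negative-side columns 1 and 3, with 180, 146 and 61.7 against 455, 241 and 610. The other genes of the pluripotency list were not, among them Esrrb with 161, 81.2 and 105 against 55.7, 192 and 101.

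In ES cells Serpinh1 was highest in negative-side column 1, with 224 and 149 normalised reads (positive side) and 297 and 223 (negative side), while both collagen IV genes were highest in negative-side column 2. P3h2, a collagen prolyl hydroxylase, had the smallest unadjusted p-value of the folding and export list in blastocysts. It was 0.00033, with an adjusted p of 0.162, by the authors' DESeq2 Wald test. The gene was near the floor, with a mean of 12.7 and 15.7, 26.4 and 34.3 normalised reads (positive side) against 0, 0 and 0.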
